A study of Homo sapiens with 61 samples.

Results

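The 5 genes described here, ERCC6, ERCC8, UVSSA, ELOF1 and XAB2, code for proteins of transcription-coupled nucleotide excision repair. They were taken by name, for this role, from 19970 protein-coding genes. For each gene, the part of its promoter (2 kb on either side of the start site) and of its gene body that lay under called peaks was read in 18 lists of H3K4me3 peaks and 19 lists of XPC peaks. H3K4me3 is a histone mark of active start sites, and XPC is the protein that finds damage in global-genome repair. The chromatin came from U2OS, a human osteosarcoma line, either wild-type (WT) or with ASH1L, a histone methyltransferase gene, disrupted by CRISPR/Cas9 (ASH1L-/-). Cells were left unirradiated (no UV) or were exposed to UV-C at 20 J/m2 and collected 1 h or 3 h later. For either antibody there were 3 libraries in each of the 6 groups, and 4 for XPC in unirradiated WT cells. The ASH1L-/- cells were grown from colonies isolated after selection, so a difference between genotypes is a difference between these lines. Chromatin of XPC-/- cells and input DNA entered only as the controls against which the peaks were called. Within a group the libraries are labelled as biological replicates.

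When RNA polymerase II stalls at a lesion in a transcribed strand, ERCC6 (CSB), a remodeller of the SWI2/SNF2 family, binds the stalled polymerase. ERCC8 (CSA) is the substrate receptor of a cullin ubiquitin ligase that ERCC6 recruits, and UVSSA is a scaffold that brings the deubiquitinase USP7 and the repair factor TFIIH. ELOF1 is an elongation factor that helps to place UVSSA and the ligase on the polymerase, and XAB2 binds XPA and belongs to a complex that also acts in splicing. XPC starts the other, global branch of excision repair and is not needed for the transcription-coupled branch.

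The targeted gene and the cell type were checked first. The ASH1L promoter carried 2.67 to 2.87 kb of H3K4me3 in the WT libraries and 2.64 to 2.86 kb in the ASH1L-/- libraries. The study cut exon 2 and exons 11 and 12, and exon 2 begins 41.2 kb from the start site, so this window says nothing about the deletion. Of 8 mesenchymal and osteoblast promoters, 5 (RUNX2, COL1A1, PRRX1, SPARC and VIM) had a median of at least 1 kb of H3K4me3, and COL1A2, TWIST1 and ALPL had 0 kb in all 18 libraries. None of 3 epithelial, 3 blood and 2 hepatocyte promoters had a median of that length, though EPCAM had a peak in all 18 libraries (up to 1.1 kb) and APOA1 in 16 of 18 (up to 0.544 kb). The H3K4me3 lists held 72984 to 142688 peaks and covered 70.1 to 132 Mb. Covered length was 70.1 to 93.3 Mb in the 6 unirradiated lists and 79.4 to 132 Mb in the 12 irradiated lists. Of the XPC lists, 17 of 19 held exactly 500000 peaks, while WT 1 h replicate 3 held 360980 and ASH1L-/- 3 h replicate 1 held 326438. The study reports the reads of each library, but these were not set against the peak lists here. A peak that was not called may have been missed for lack of reads, which was not tested. A mark present in fewer cells and a mark weaker in each cell cannot be told apart in such lists.

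The 5 genes lie on 4 chromosomes (hg38, GENCODE annotation). ERCC6 (ENSG00000225830) is on the minus strand of chromosome 10, 49454168 to 49539538, with its start site at 49539121 and 21 exons over 85.4 kb. ERCC8 (ENSG00000049167) is on the minus strand of chromosome 5, 60866454 to 60945073, with its start site at 60945070 and 12 exons over 78.6 kb. UVSSA (ENSG00000163945) is on the plus strand of chromosome 4, 1345691 to 1395989, with its start site at 1347208 and 14 exons over 50.3 kb. Both genes of chromosome 19 are short and on the minus strand. ELOF1 (ENSG00000130165) spans 11551147 to 11559230 with its start site at the upper end and 4 exons over 8.08 kb, and XAB2 (ENSG00000076924) spans 7619525 to 7629545, likewise starting at the upper end, with 19 exons over 10.0 kb. The H3K4me3 region at the ELOF1 start site also overlapped another annotated gene, ZNF627, whose own promoter window it did not touch. Whether the mark there belongs to ELOF1 alone was not tested.

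ERCC8 and XAB2 share their promoters with a gene read from the other strand. The start site of NDUFAF2, an assembly factor of mitochondrial complex I, is 135 bp from that of ERCC8, and 3.865 kb of the 4 kb windows is common to both. The start site of PET100, a factor for assembly of mitochondrial cytochrome c oxidase, is 248 bp from that of XAB2, with 3.752 kb in common. A readthrough gene annotated as ENSG00000268400 starts 274 bp away and shares 3.726 kb. H3K4me3 at these windows therefore cannot be assigned to one gene of the pair. The DNA between the start sites of these pairs, and the stretch upstream of UVSSA where its H3K4me3 peaks part, are given here from RefSeq (GRCh38.p14), 5′ to 3′ on the strand of the named gene. Capitals mark the CCAAT box (CCAAT or ATTGG), the GC box (GGGCGG or CCGCCC), the ETS core (CCGGAA or TTCCGG) and the E-box (CACGTG), searched on both strands.
ERCC8, chr5:60945074-60945176, minus strand, the 103 upstream bases that lie in no annotated exon: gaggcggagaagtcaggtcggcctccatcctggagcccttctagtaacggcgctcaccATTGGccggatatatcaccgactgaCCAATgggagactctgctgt
XAB2, chr19:7629546-7629787, minus strand, the 242 upstream bases that lie in no annotated exon: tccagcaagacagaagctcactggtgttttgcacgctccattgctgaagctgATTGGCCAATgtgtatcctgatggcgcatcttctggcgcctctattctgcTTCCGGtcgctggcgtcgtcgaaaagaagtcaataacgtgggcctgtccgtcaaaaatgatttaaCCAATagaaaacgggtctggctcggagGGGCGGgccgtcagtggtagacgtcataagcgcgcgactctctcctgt
UVSSA, chr4:1346958-1347058, plus strand, 101 bases from −250 to −150 bp of the start site: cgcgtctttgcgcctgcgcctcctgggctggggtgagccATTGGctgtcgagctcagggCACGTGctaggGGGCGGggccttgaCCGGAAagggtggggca

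The 250 bases upstream of each start site held different letters. A CCAAT box was found at ERCC8 (−48 and −23 bp), XAB2 (−190, −185 and −75 bp, the first pair running on from one another) and UVSSA (−211 and −66 bp), and at 32.0% of 35114 RefSeq promoters of the same length. A GC box was found at UVSSA and XAB2 and at 42.6% of promoters. The ETS core was found at UVSSA, XAB2 and ELOF1, where it was the only motif found (−21 bp), and at 14.5% of promoters. An E-box was found at UVSSA (−191 bp) and at ERCC6 (−49 bp), its only one, and at 6.35% of promoters. Neither TATAAA (10.7% of promoters) nor TGACGTCA (1.65%) was found upstream of any of the 5 genes.

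H3K4me3 was called at all 5 promoters in all 18 libraries. At ERCC6, a single peak straddled the start site in 17 of 18 libraries, with its summit at a median of 262 bp downstream. At ELOF1 the summit was downstream in all 18 libraries (208 to 836 bp). ERCC8 had the opposite shape. Its summit was upstream in all 18 libraries (−910 to −422 bp), on the NDUFAF2 side of the shared DNA printed above. At XAB2 the summit was on the XAB2 side in 10 of 18 libraries and on the PET100 side in the others. At UVSSA the mark was split in every library into 2 or 3 peaks, and the merged upstream region ended at −0.214 kb and the downstream one began at −0.116 kb. The start of that gap lies within the stretch printed above, and the summit of the strongest peak was upstream in 16 of 18 libraries. Among 14745 promoter windows with H3K4me3 in at least 3 libraries, the mean covered length in unirradiated WT cells stood at percentile 84.5 for ERCC8, 71.6 for UVSSA, 69.3 for XAB2, 50.6 for ELOF1 and 49.7 for ERCC6.

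**Figure D1:**
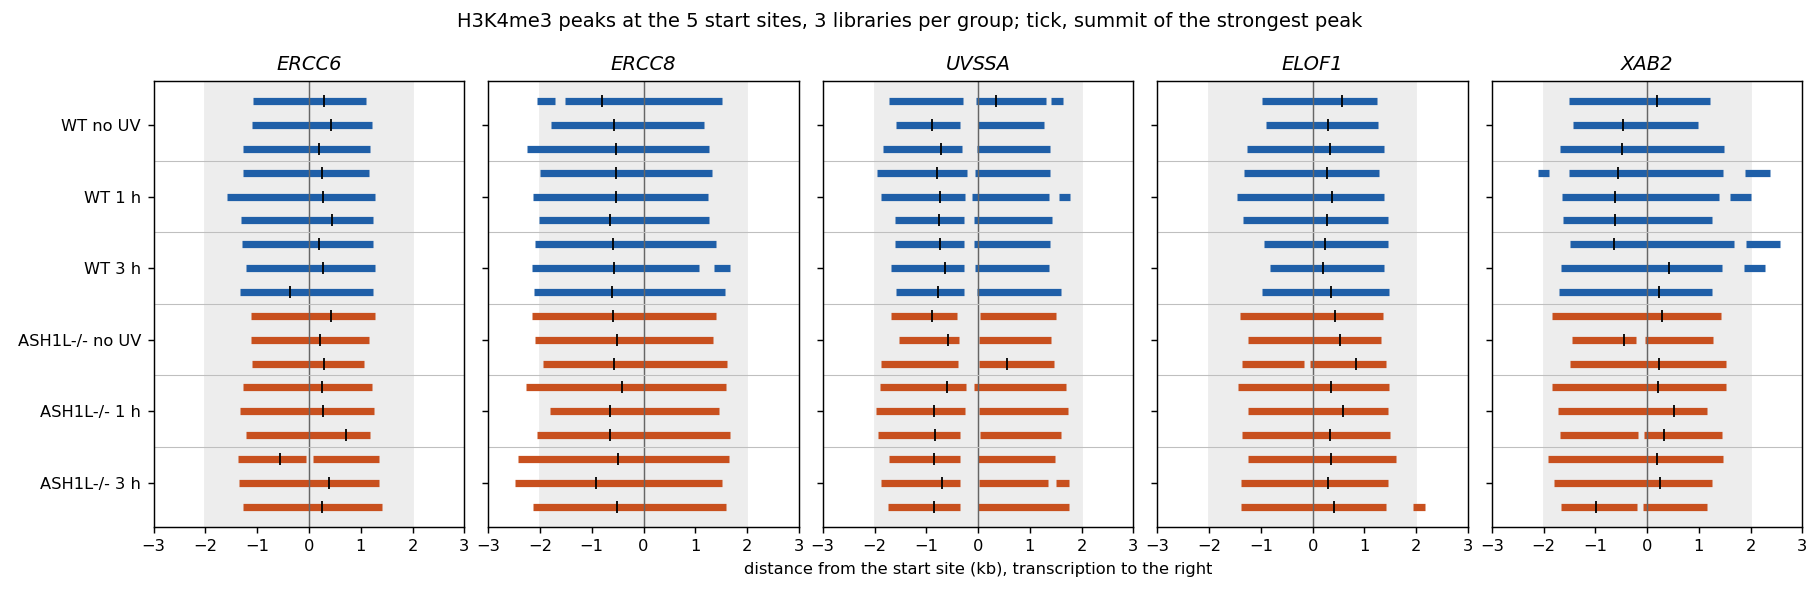
H3K4me3 peaks around the 5 start sites in each of the 18 libraries, with distance from the start site in kb on the horizontal axis and libraries in rows (WT blue, ASH1L-/- orange). The ERCC8 peaks reached the upstream limit of the window in most libraries. The UVSSA peaks left a gap just upstream of the start site, and the other 3 genes had peaks on both sides of it.

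The height of H3K4me3 changed with UV in WT cells at 4 of the 5 promoters. Height is the highest fold enrichment over input, as the authors' peak caller gave it, of any peak in the 4 kb window, and its changes are on the scale log2(1 + fold enrichment). A UV change is the mean of the 1 h and 3 h groups minus the unirradiated group, with standard errors and p-values from limma, adjusted by Benjamini-Hochberg over all windows. At ERCC8, fold enrichment was 11, 9.48 and 11.8 in unirradiated WT libraries, 17.1, 20.1 and 15.3 at 1 h, and 29.4, 30.5 and 23.2 at 3 h. The 3 groups did not overlap, and the level at 3 h was the highest of the 5 genes in any group. At XAB2 it was 13.3, 9.05 and 13.2 without UV, 19.6, 24.9 and 15.6 at 1 h, and 24.8, 20.2 and 21.4 at 3 h. Every irradiated WT library was above every unirradiated one, while the times overlapped. At UVSSA it was 9.01, 7.24 and 7.21 without UV, 25.4, 24.7 and 15.3 at 1 h, and 8.01, 8.09 and 9.51 at 3 h. The 1 h libraries stood apart and the 3 h libraries overlapped the unirradiated ones. At ERCC6 it was 7.37, 4.50 and 9.66 without UV, 11.7, 13.4 and 14 at 1 h, and 9.23, 8.07 and 13.6 at 3 h. At ELOF1 it was 9.16, 9.67 and 10.7 without UV, 15.1, 15.9 and 11.1 at 1 h, and 13.6, 10.8 and 11.1 at 3 h. The irradiated ELOF1 libraries were all above the unirradiated ones, and those of ERCC6 overlapped them. How many other windows or gene bodies have libraries that stand apart in this way was not counted, here or below. Height rose in general after UV in WT, with a median change of 0.36 over all windows.

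The UV change in WT was 0.97 ± 0.22 (SE) for ERCC8 (adjusted p = 0.00261, limma), 0.78 ± 0.18 for XAB2 (adjusted p = 0.00248), 0.73 ± 0.18 for UVSSA (adjusted p = 0.00435) and 0.66 ± 0.23 for ERCC6 (adjusted p = 0.0352). ELOF1 did not pass (0.35 ± 0.17, adjusted p = 0.124). Of all windows, 27.1% passed as higher and the median change was 0.36, so the 4 of 5 compare with 27.1% of promoters in general. The calls of ERCC8, XAB2 and UVSSA held when any 1 of the 18 libraries was left out. ERCC6 lost its call without WT no UV replicate 2, the lowest library (0.40, adjusted p = 0.350), and also without WT no UV replicate 1, WT 1 h replicate 2 or WT 3 h replicate 3 (adjusted p = 0.0632, 0.0686 and 0.0707). With the median of each library subtracted, ERCC8 (0.62, adjusted p = 0.0372) and XAB2 (0.44, adjusted p = 0.00507) still passed, and UVSSA (0.39, adjusted p = 0.0740) and ERCC6 (0.32, adjusted p = 0.483) did not. On that scale 6.03% of windows passed as higher and 2.5% as lower.

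**Figure D2:**
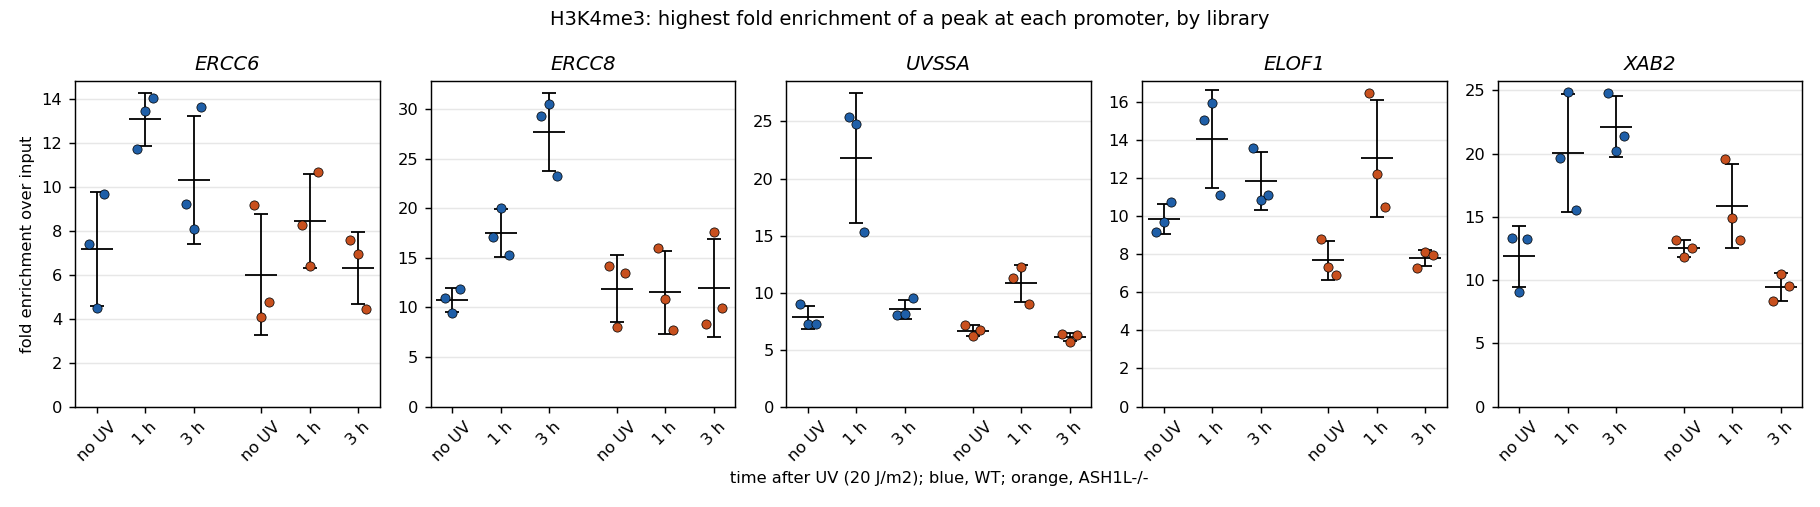
Highest H3K4me3 fold enrichment over input in the 4 kb promoter window (vertical axis) by group (horizontal axis), 1 panel per gene, with 1 point per library and the mean ± SD of 3 libraries. In WT (blue) ERCC8 reached 23.2 to 30.5 at 3 h and UVSSA 15.3 to 25.4 at 1 h, while ASH1L-/- (orange) ERCC8 libraries stayed between 7.70 and 17.6.

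The 5 genes differed in when the height was raised in WT cells. At 1 h, UVSSA was higher by 1.34 ± 0.20 (adjusted p = 0.000204, limma), ERCC6 by 0.83 (adjusted p = 0.0198), XAB2 by 0.70 (adjusted p = 0.0111) and ERCC8 by 0.65 (adjusted p = 0.0445), against 34.8% of all windows higher and a median of 0.47. ELOF1 had 0.46 (adjusted p = 0.0714) and passed without WT 1 h replicate 3 or ASH1L-/- 1 h replicate 1 (adjusted p = 0.0235 and 0.0466). At 3 h only ERCC8 (1.28 ± 0.25, adjusted p = 0.00130) and XAB2 (0.86 ± 0.20, adjusted p = 0.00560) of the 5 passed, against 12.1% of windows higher and a median of 0.25. From 1 h to 3 h UVSSA fell by 1.23 (adjusted p = 0.00109), where 10.1% of windows passed as lower. With library medians subtracted, UVSSA alone passed at 1 h (0.85, adjusted p = 0.00462), ERCC8 (1.09, adjusted p = 0.00201) and XAB2 (0.67, adjusted p = 0.000422) passed at 3 h, and both of the latter also rose from 1 h to 3 h (0.93 and 0.45, adjusted p = 0.00574 and 0.00557). On that scale 3.23% of windows were higher at 1 h and 10.9% at 3 h. Without WT no UV replicate 2, and with medians not subtracted, XAB2 missed the threshold at 3 h (0.69, adjusted p = 0.0542). Several 1 h calls rested on single libraries as well. ERCC6, XAB2 and ERCC8 each lost theirs without WT no UV replicate 2 (adjusted p = 0.176, 0.0928 and 0.187) and without WT 1 h replicate 2 (adjusted p = 0.0817, 0.0948 and 0.182), and ERCC8 also without WT no UV replicate 1 or WT 1 h replicate 1 (adjusted p = 0.0741 and 0.0955).

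In ASH1L-/- cells none of the 5 promoters passed as changed after UV. At ERCC8, fold enrichment was 14.2, 8.05 and 13.5 without UV, 16, 10.9 and 7.70 at 1 h, and 8.36, 17.6 and 9.92 at 3 h. These 3 groups overlapped one another. At XAB2 it was 13.2, 11.9 and 12.5 without UV, 19.6, 14.9 and 13.1 at 1 h, and 8.34, 10.5 and 9.52 at 3 h, so that every 3 h library was below every other one. At UVSSA it was 7.12, 6.16 and 6.69 without UV, 11.3, 12.2 and 9.03 at 1 h, and 6.34, 5.70 and 6.26 at 3 h, and the 1 h libraries again stood apart. These 1 h values were again those of the upstream UVSSA peak. At ERCC6 it was 9.18, 4.09 and 4.74 without UV, 8.24, 6.38 and 10.7 at 1 h, and 7.55, 6.92 and 4.45 at 3 h. At ELOF1 it was 8.81, 7.33 and 6.88, then 16.4, 12.2 and 10.5, then 7.29, 8.11 and 7.94. The ERCC6 groups overlapped, and the 1 h libraries of ELOF1 were above the rest.

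The UV changes in ASH1L-/- ran from −0.04 (ERCC8 and XAB2) to 0.35 (ELOF1), with adjusted p from 0.227 to 0.944 (limma), while 2.81% of all windows passed as higher. At 1 h alone ELOF1 (0.68, adjusted p = 0.0157) and UVSSA (0.62, adjusted p = 0.0253) were higher, against 29.7% of windows. UVSSA lost this call without any one of ASH1L-/- no UV replicate 2 or 3 or ASH1L-/- 1 h replicate 1 or 2 (adjusted p = 0.0590 to 0.0967), and ELOF1 without ASH1L-/- no UV replicate 2 or 3 or ASH1L-/- 1 h replicate 1 (adjusted p = 0.0550 to 0.113). ERCC6 passed at 1 h without ASH1L-/- no UV replicate 1 (adjusted p = 0.0414). None of the 5 was called at 3 h, where 0.509% of windows were higher and 1.7% lower. From 1 h to 3 h, UVSSA fell by 0.73 (adjusted p = 0.00668), XAB2 by 0.68 (adjusted p = 0.00994) and ELOF1 by 0.66 (adjusted p = 0.0115), as did 41.4% of windows, and the last 2 of these missed the threshold without ASH1L-/- 1 h replicate 1 (adjusted p = 0.0792 and 0.0864). With library medians subtracted none of these 3 falls and neither 1 h call passed (adjusted p = 0.383 to 0.706).

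Compared directly, the genotypes differed in height after UV most, among the 5, at ERCC8 and XAB2. Without UV none of the 5 differed in height (10.9% of windows passed as lower in ASH1L-/-, with a median of −0.30). After UV all 5 were lower in ASH1L-/- than in WT, by −0.90 ± 0.18 for ERCC8 (adjusted p = 0.000159, limma), −0.73 ± 0.14 for XAB2 (adjusted p = 0.000150), −0.67 ± 0.14 for UVSSA (adjusted p = 0.000343), −0.61 ± 0.19 for ERCC6 (adjusted p = 0.00680) and −0.32 ± 0.14 for ELOF1 (adjusted p = 0.0455). Since 65% of all windows passed in this direction, with a median of −0.49, the count of 5 of 5 was not far from that of promoters in general, and ELOF1 lay above the median. ELOF1 lost its call when any of 14 of the 18 libraries was left out (adjusted p = 0.0506 to 0.118). With library medians subtracted, XAB2 stayed lower (−0.21, adjusted p = 0.0343), ERCC8 (−0.39, adjusted p = 0.0591), UVSSA (−0.16) and ERCC6 (−0.10) did not pass, and ELOF1 turned to 0.19 (adjusted p = 0.114). On that scale 14.2% of windows were higher and 9.51% lower. By time, UVSSA was lower at 1 h (−0.92, adjusted p = 0.00521; 16.9% of windows), and XAB2 (−1.15, adjusted p = 4.48e-05), ERCC8 (−1.20, adjusted p = 0.000301), ERCC6 (−0.63, adjusted p = 0.0473) and ELOF1 (−0.54, adjusted p = 0.0236) were lower at 3 h (54.4% of windows, median −0.60). UVSSA lost its 1 h call without WT 1 h replicate 2 (adjusted p = 0.0538), and ERCC8 gained one without ASH1L-/- 1 h replicate 1 (−0.85, adjusted p = 0.0186). At 3 h ELOF1 missed the threshold without replicate 1 of either genotype (adjusted p = 0.110 and 0.0771), and ERCC6 when any of 9 libraries was left out (adjusted p = 0.0520 to 0.213). UVSSA at 3 h passed without WT 1 h replicate 3 (−0.42, adjusted p = 0.0468). With medians subtracted, UVSSA at 1 h (−0.55, adjusted p = 0.0257) and XAB2 at 3 h (−0.49, adjusted p = 0.00166) passed, ERCC8 did not (−0.54, adjusted p = 0.0530), and ERCC6 (0.03) and ELOF1 (0.11) turned. XAB2 was with medians subtracted also higher in unirradiated ASH1L-/- cells (0.46, adjusted p = 0.00705), where 7.89% of windows passed as higher.

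The difference between the UV changes was −1.01 ± 0.31 for ERCC8 (adjusted p = 0.0565) and −0.82 ± 0.25 for XAB2 (adjusted p = 0.0549), so both missed the threshold, and 3.85% of windows passed as lower. UVSSA (−0.47, adjusted p = 0.330), ERCC6 (−0.37, adjusted p = 0.621) and ELOF1 (0.00, adjusted p = 0.996) missed it by more. With library medians subtracted ERCC8 (−0.86, adjusted p = 0.0368) and XAB2 (−0.68, adjusted p = 0.00229) passed, beside 6.86% of windows lower and 3.38% higher. ERCC8 also passed without WT 1 h replicate 3, ASH1L-/- no UV replicate 2, ASH1L-/- 1 h replicate 1 or ASH1L-/- 3 h replicate 2 (adjusted p = 0.0155 to 0.0485), and XAB2 without WT no UV replicate 3, WT 1 h replicate 3 or ASH1L-/- 1 h replicate 1 (adjusted p = 0.0223 to 0.0429). Taken at 3 h alone, a comparison added after the values were seen, the difference passed for ERCC8 (−1.30 ± 0.35, adjusted p = 0.0129) and XAB2 (−1.24 ± 0.29, adjusted p = 0.00380), against 12.5% of windows lower and a median of −0.28. These calls held without any 1 library and with library medians subtracted. At 1 h alone none passed, and UVSSA had the smallest unadjusted p of the 5 (−0.72 ± 0.29, adjusted p = 0.401), against 0.183% of windows lower. NDUFAF2 and PET100 carry the same heights as ERCC8 and XAB2, since the highest peak lies in the shared DNA.

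**Figure D3:**
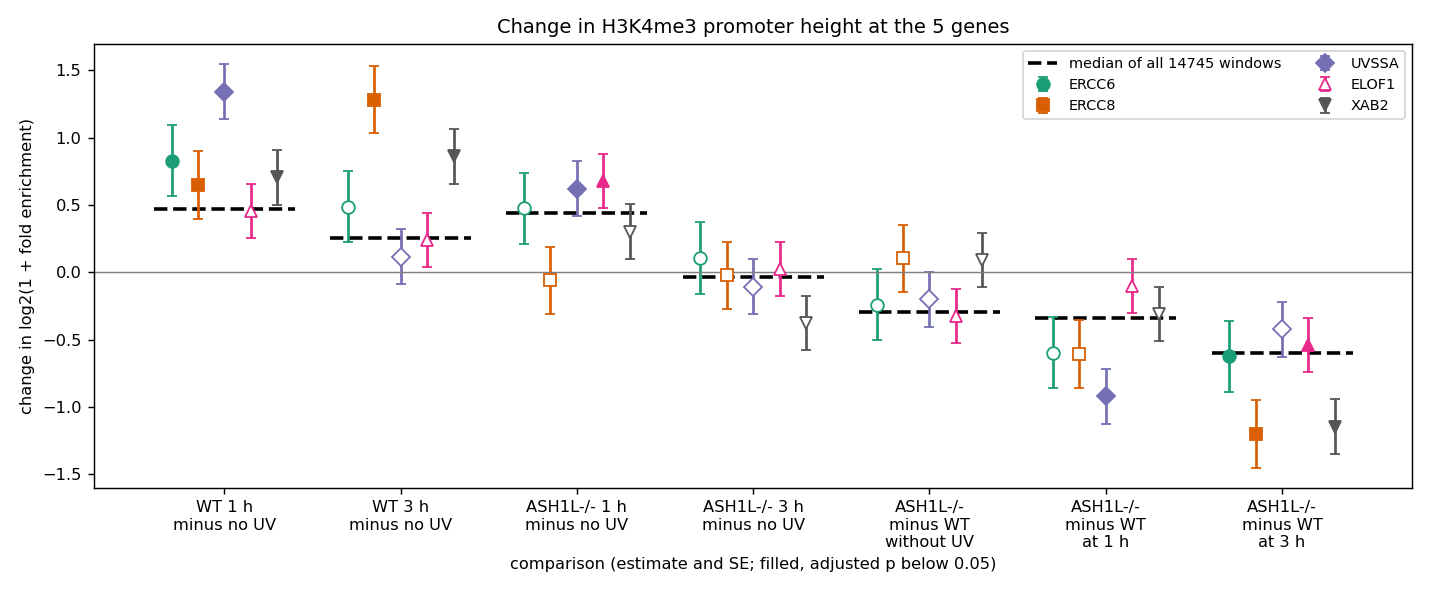
Changes of H3K4me3 promoter height on the log2(1 + fold enrichment) scale with their SE (vertical axis) for the 5 genes in 7 comparisons at single times (horizontal axis). Filled points passed at an adjusted p of 0.05, and the dashed line is the median of all 14745 windows, which lies at 0.47 for WT at 1 h and at −0.60 for ASH1L-/- against WT at 3 h, where ERCC8 and XAB2 lie lowest.

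Covered length passed as higher after UV at 1 of the 5 promoters in WT (ERCC6) and at 2 in ASH1L-/- (ERCC6 and UVSSA). Of all windows, 30.5% passed as higher in WT and 24% in ASH1L-/-. ERCC6 had 2.17, 2.32 and 2.47 kb in unirradiated WT libraries, 2.44, 2.87 and 2.54 kb at 1 h, and 2.53, 2.49 and 2.56 kb at 3 h. The ASH1L-/- libraries had 2.40, 2.28 and 2.18 kb, then 2.51, 2.59 and 2.41 kb, then 2.59, 2.71 and 2.69 kb. All irradiated ASH1L-/- libraries were above the unirradiated ones, and in WT 1 library overlapped. Its UV change was 0.25 ± 0.09 kb in WT (adjusted p = 0.0472, limma) and 0.30 ± 0.09 kb in ASH1L-/- (adjusted p = 0.0294). In WT it was the only 1 of the 5 to pass, against 30.5% of windows higher with a median of 0.203 kb. The WT call held when 5 of the 18 libraries were left out in turn and was lost without any of the other 13, with values of 0.179 to 0.273 kb and the largest adjusted p (0.192) without WT no UV replicate 1. The ASH1L-/- call was lost without ASH1L-/- no UV replicate 2 or 3, ASH1L-/- 1 h replicate 1 or 2, or ASH1L-/- 3 h replicate 2 (adjusted p = 0.0508 to 0.104).

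UVSSA had 2.75, 2.56 and 2.92 kb in unirradiated ASH1L-/- libraries, 3.45, 3.45 and 3.17 kb at 1 h, and 2.86, 3.11 and 3.15 kb at 3 h. Its UV change of 0.46 ± 0.13 kb passed (adjusted p = 0.0215), with ERCC6 the pair called among the 5, against 24% of windows higher with a median of 0.174 kb. The call was lost without ASH1L-/- no UV replicate 1 or 2 (adjusted p = 0.0601 and 0.117). In WT the UVSSA libraries had 3.02, 2.49 and 2.94 kb without UV, 3.20, 3.32 and 2.85 kb at 1 h, and 2.78, 2.85 and 2.92 kb at 3 h, and the groups overlapped. At single times ERCC6 (0.30 kb, adjusted p = 0.0493) and ELOF1 (0.41 kb, adjusted p = 0.0210) were longer at 1 h in WT (25.7% of windows), UVSSA at 1 h in ASH1L-/- (0.61 kb, adjusted p = 0.0130; 23% of windows) and ERCC6 at 3 h in ASH1L-/- (0.38 kb, adjusted p = 0.0325; 11.6% of windows). Each of these 4 calls was lost without at least 2 of the libraries in turn. ERCC8 had 2.95 to 3.66 kb and XAB2 had 2.40 to 3.44 kb over all 18 libraries, and neither passed in either genotype. At ERCC8 the mark ran past the upstream end of the window in most libraries, among them all those at 3 h. Length beyond that end was not counted. Without WT no UV replicate 3, XAB2 (0.604 kb, adjusted p = 0.0303) and ELOF1 (0.357 kb, adjusted p = 0.00610) passed for UV in WT. When the covered length of each library was scaled to an equal total, the ERCC6 and UVSSA calls were lost and ERCC6 in WT stood at −0.0035 kb. Under that scaling 5.79% of windows passed as higher and 12.2% as lower for UV in WT, and 3.80% and 5.89% for UV in ASH1L-/-.

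After UV the ELOF1 promoter had a longer covered length in ASH1L-/- than in WT. In ASH1L-/- it had 2.76, 2.56 and 2.68 kb without UV, 2.91, 2.71 and 2.86 kb at 1 h, and 2.86, 2.83 and 2.87 kb at 3 h. In WT it had 2.22, 2.16 and 2.64 kb, then 2.61, 2.84 and 2.79 kb, then 2.39, 2.2 and 2.45 kb. At 3 h no WT library reached the shortest ASH1L-/- one. The difference was 0.29 ± 0.08 kb over both times (adjusted p = 0.0188, limma; 10.7% of windows higher) and 0.51 ± 0.11 kb at 3 h (adjusted p = 0.00963; 7% of windows higher). Without WT 1 h replicate 1 the first missed the threshold (0.258 kb, adjusted p = 0.0517), and with scaled length it passed (0.294 kb, adjusted p = 0.00268). ERCC8 passed as longer in ASH1L-/- after UV without ASH1L-/- 1 h replicate 2 (0.241 kb, adjusted p = 0.0327). Without UV no length of the 5 differed between genotypes (2.86% of windows higher, 1.11% lower), but ELOF1 passed without WT no UV replicate 3 (0.472 kb, adjusted p = 0.00844) and with scaled length (0.299 kb, adjusted p = 0.0419), where 4.31% of windows were higher and 3.6% lower. No difference between UV changes in length passed for the 5 genes (0.19% of windows higher, 0.861% lower). The ELOF1 promoter was thus longer and, in fold enrichment, not higher in ASH1L-/- than in WT after UV.

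**Figure D4:**
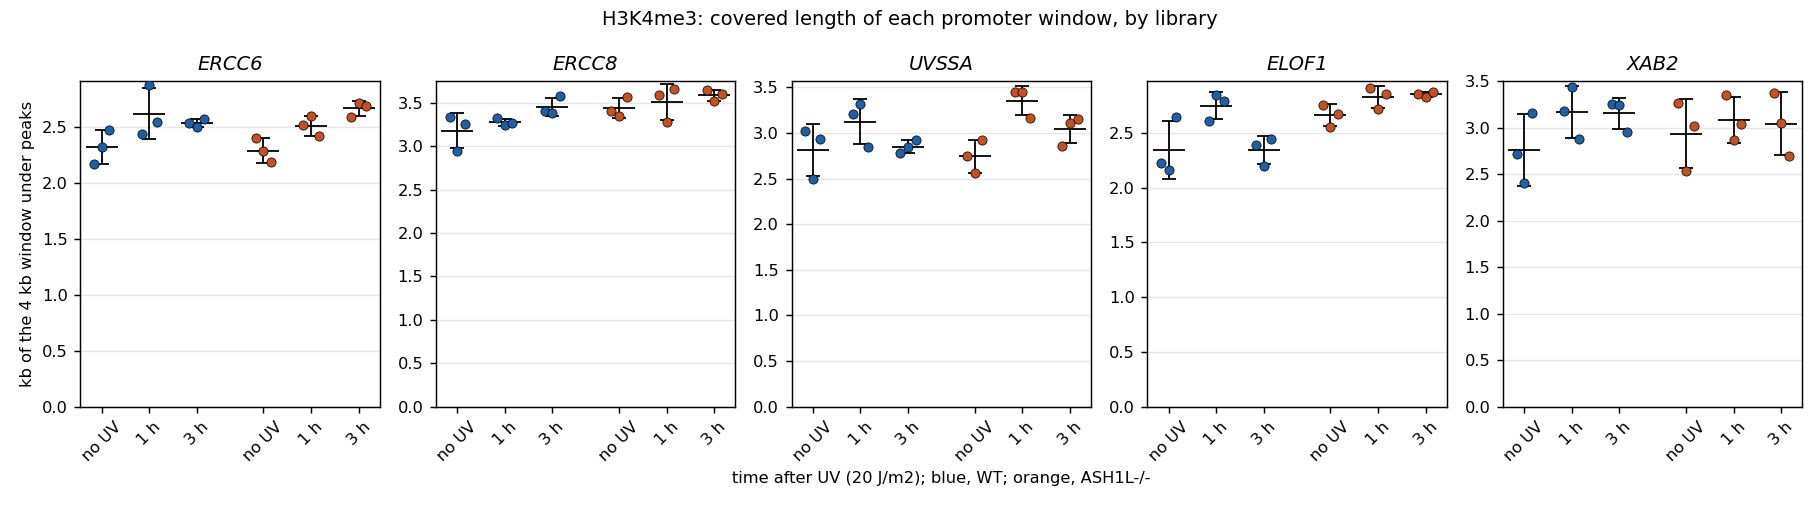
H3K4me3 covered length of the 4 kb promoter window in kb (vertical axis) by group (horizontal axis), with 1 point per library and the mean ± SD of 3 libraries, WT in blue and ASH1L-/- in orange. At 3 h the ELOF1 libraries lay at 2.83 to 2.87 kb in ASH1L-/- and at 2.2 to 2.45 kb in WT.

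Past the promoter, H3K4me3 was found in the bodies of ERCC8, XAB2 and ERCC6. A gene body was counted from 2 kb downstream of the start site up to the end of the gene. ERCC8 had 2.08, 2.47 and 3.09 kb in unirradiated WT libraries, 3.97, 4.23 and 6.26 kb at 1 h, and 7.02, 3.21 and 6.0 kb at 3 h. In ASH1L-/- it had 2.74, 2.07 and 2.74 kb, then 2.63, 5.72 and 6.61 kb, then 9.10, 5.53 and 6.65 kb. Every irradiated WT library was above every unirradiated one, and in ASH1L-/- 1 library at 1 h was not. The UV change was 3.52 kb in ASH1L-/- (adjusted p = 0.0419, limma; 8.2% of 12403 bodies higher) and 2.57 kb in WT (adjusted p = 0.0827). Whether the genotypes differ in this is a separate test, which ERCC8 did not pass. The ASH1L-/- call was lost without any of 12 of the 18 libraries (adjusted p = 0.0527 to 0.165), and the WT value passed without WT 3 h replicate 2 (3.12 kb, adjusted p = 0.0282). One intronic region, 7.08 to 10.5 kb from the start site, was called in all 18 libraries. A region 72.6 to 75.3 kb from the start site was called in 15 libraries. Another region, 62.9 to 64.5 kb from it, was called in 2 of the 6 unirradiated and in all 12 irradiated libraries, a region singled out after its values were seen and not tested by itself.

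XAB2 had no H3K4me3 in its body in the 3 unirradiated WT libraries, 0.366, 0.271 and 0.205 kb at 1 h, and 0.564, 0.281 and 0.282 kb at 3 h. The ASH1L-/- libraries held 0.190, 0 and 0 kb without UV, 0.305, 0 and 0 kb at 1 h and 0 kb in all 3 libraries at 3 h. All 6 irradiated WT libraries and 1 of 6 irradiated ASH1L-/- libraries thus had the mark past 2 kb. It was in several libraries a separate, weaker peak, as in WT 3 h replicate 1, where the main peak ended 1674 bp from the start site (fold enrichment 24.8) and another ran from 1907 to 2563 bp (fold enrichment 2.82). The UV change in WT was 0.33 ± 0.09 kb (adjusted p = 0.0193; 19% of bodies higher), and ASH1L-/- was lower than WT after UV by −0.28 ± 0.07 kb (adjusted p = 0.00939; 15.7% of bodies lower). The first call was lost without WT no UV replicate 1 or 2 (adjusted p = 0.0722 and 0.0733), and the second held without any 1 of the 18. With scaled length the first missed the threshold (0.276 kb, adjusted p = 0.0780; 2.71% of bodies higher), as it did with only the groups compared, and the second passed (−0.215 kb, adjusted p = 0.0293; 20.3% of bodies higher, 11.4% lower). ERCC8 then passed as higher in ASH1L-/- after UV (1.71 kb, adjusted p = 0.0163). With the fold enrichment limit of 5 or an equal number of peaks per library, the body of XAB2 had too little to be tested. The difference of the UV changes did not pass (−0.34 kb, adjusted p = 0.153; 3.52% of bodies lower). ERCC6 had 0.292 to 1.15 kb in the 18 libraries and no call in any comparison, and a region over its last exon, 84.1 to 85.9 kb from the start site, was present in all 18. UVSSA (0.130 kb in 1 WT 1 h library) and ELOF1 (0.170 kb in 1 ASH1L-/- 3 h library) had too little to be tested.

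XPC coverage of the 5 promoters varied widely between libraries of a group. XPC peaks were called as broad peaks against chromatin of XPC-/- cells, and they were weak. The strongest peak of a promoter in a library had a −log10 p of 1.08 to 3.11 and a −log10 q of at most 1.13. At ERCC6 the covered length was 2.10, 2.91, 1.51 and 0 kb in unirradiated WT libraries, 1.17, 0 and 2.82 kb at 1 h, and 1.77, 0 and 1.96 kb at 3 h. The ASH1L-/- values were 3.01, 0.362 and 1.34 kb, then 1.77, 0.773 and 1.76 kb, then 1.85, 3.13 and 1.5 kb. Each WT group of ERCC6 held a library with no peak, and no ASH1L-/- library was without one. At ERCC8 it was 2.34, 1.48, 0.983 and 1.57 kb in unirradiated WT, 2.98, 1.72 and 0.790 kb at 1 h, and 1.16, 1.34 and 0 kb at 3 h. In ASH1L-/- it was 2.65, 0.454 and 1.25 kb, then 0.546, 1.26 and 1.46 kb, then 0 kb in all 3 libraries. No XPC peak was thus called at ERCC8 at 3 h in ASH1L-/-, and 1 of 3 WT libraries at that time had none either. Among 18991 windows tested for XPC, a mean of 0 kb in that ASH1L-/- group stood at percentile 2.95, with tied windows counted at their midpoint.

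At UVSSA the XPC length was 2.17, 1.71, 4.0 and 0.125 kb in unirradiated WT, 0.289, 0.262 and 0 kb at 1 h, and 1.00, 0.936 and 0 kb at 3 h. In ASH1L-/- it was 3.64, 0.587 and 0 kb, then 0.545, 0 and 0 kb, then 0, 1.92 and 0 kb. Only in WT was a peak found in every unirradiated UVSSA library. At ELOF1 it was 1.99, 0.994, 3.45 and 0 kb, then 1.04, 0.210 and 0 kb, then 0, 1.09 and 0 kb in WT, and 1.64, 0 and 0.425 kb, then 0.888, 0.483 and 0.561 kb, then 0, 0.579 and 0.353 kb in ASH1L-/-. At XAB2 it was 2.96, 0, 3.50 and 0.109 kb, then 0.595, 0.483 and 1.38 kb, then 2.23, 2.05 and 0 kb in WT, and 1.45, 1.05 and 0 kb, then 0.649, 0.089 and 1.52 kb, then 0 kb in all 3 libraries in ASH1L-/-. The groups of ELOF1 overlapped. No XPC peak was called at XAB2 in ASH1L-/- at 3 h, and at that time 1 of 3 WT libraries had none either. The mean of 0 kb at XAB2 stood at percentile 2.95 of windows, as did that of ERCC8.

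None of the 5 promoters passed in any XPC comparison by limma, and neither did any of the 18991 windows tested (0% called). With scaled length 165 windows passed for ASH1L-/- against WT after UV, 67 for the same at 1 h and 30 for WT at 1 h against no UV, and none of the 5 promoters did (adjusted p of at least 0.0939). At an unadjusted p under 0.05, 1483 windows stood out for UV in WT, among them UVSSA (−1.59 ± 0.59 kb, adjusted p = 0.482) and ELOF1 (−1.22 ± 0.49 kb, adjusted p = 0.531). For UV in ASH1L-/- there were 965 such windows, for ASH1L-/- against WT 987 without UV and 908 after UV, and for the difference of UV changes 292, and none of the 5 genes was among these. Covered lengths were also simulated, with shifts of 1 kb put into 200 windows of the irradiated WT libraries. Tested unscaled for UV in WT, these shifts were recovered in 0% of cases for XPC, against 99.5% for H3K4me3. The XPC result for UV in WT therefore cannot exclude changes of that size. Scaled length and the other comparisons were not simulated. The simulated lengths were not limited to the 4 kb of a window. The 99.5% therefore does not describe promoters with little left uncovered, such as ERCC8. The 2 shorter lists gave 0 kb at 4 of the 5 promoters (ASH1L-/- 3 h replicate 1, all but ERCC6) and at 2 of the 5 (WT 1 h replicate 3, UVSSA and ELOF1). Without these 2 lists none of the 5 promoters passed either.

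**Figure D5:**
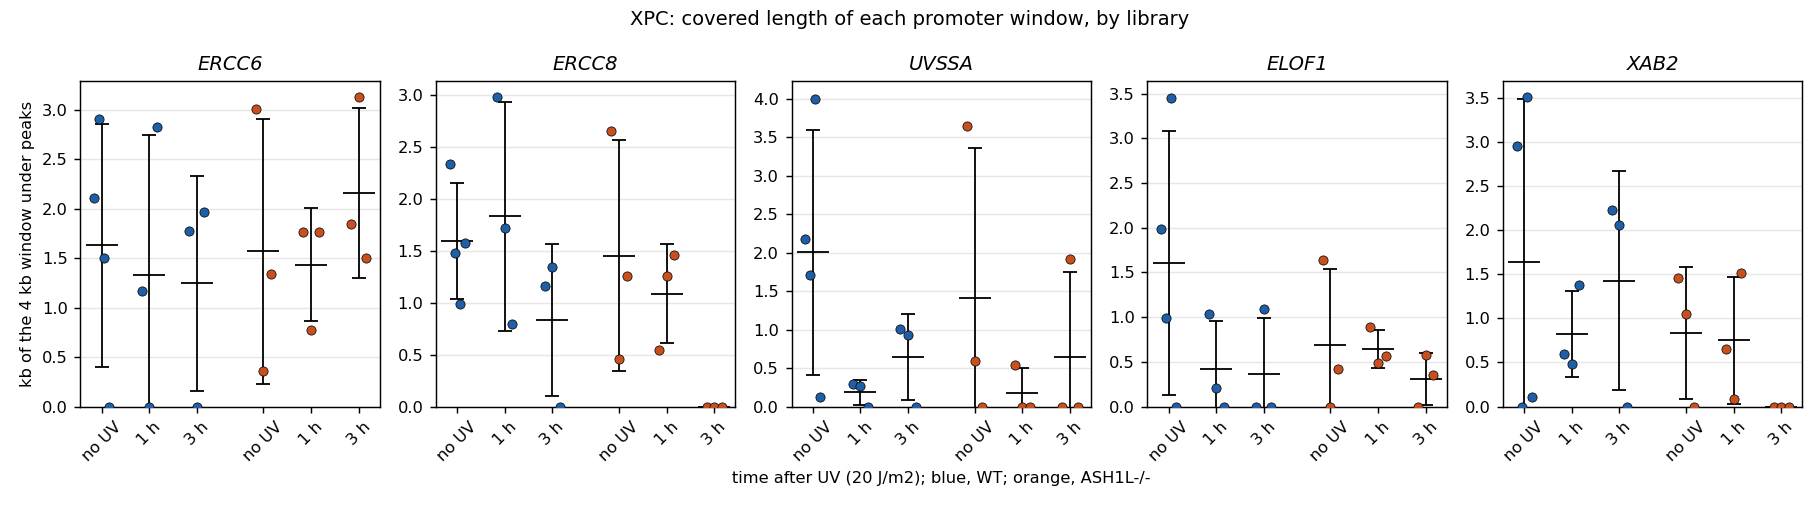
XPC covered length of the 4 kb promoter window in kb (vertical axis) by group (horizontal axis), with 1 point per library and the mean ± SD (4 libraries in unirradiated WT, 3 elsewhere). The 4 libraries of UVSSA in unirradiated WT spread from 0.125 to 4.0 kb, and in ASH1L-/- at 3 h no peak was called at ERCC8 or XAB2.

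In the gene bodies, XPC covered 3.80 to 17.8 kb of ERCC6, 1.41 to 21.5 kb of ERCC8, 0.672 to 19.1 kb of UVSSA, 0 to 5.17 kb of ELOF1 and 0 to 7.05 kb of XAB2 over the 19 libraries. For ERCC6 the 4 unirradiated WT libraries had 10.2, 15.3, 9.97 and 16.4 kb, the 1 h libraries 3.80, 5.76 and 5.25 kb and the 3 h libraries 6.17, 9.76 and 5.38 kb. All 6 irradiated WT libraries were below all 4 unirradiated ones, but the change did not pass (−6.95 ± 2.88 kb, adjusted p = 0.337, limma; 0.687% of 17181 bodies called). The whole XPC lists of WT covered 307 to 397 Mb without UV, 197 to 280 Mb at 1 h and 228 to 403 Mb at 3 h. The lengths given here are not scaled to these totals, and the share of all bodies that separate in this way was not counted. In ASH1L-/- the ERCC6 groups overlapped, with 7.78, 8.01 and 15.0 kb, then 3.80, 7.34 and 12.6 kb, then 4.08, 17.8 and 13.9 kb. For XAB2 the irradiated libraries had 3.05, 0, 5.53, 3.96, 7.05 and 2.48 kb in WT and 0.904, 1.98, 0.328, 0, 4.0 and 0 kb in ASH1L-/-, a difference of −2.48 ± 1.03 kb that did not pass either (adjusted p = 0.329; 2.51% of bodies called). None of the 5 bodies passed for UV in ASH1L-/- (0.00582% called), for ASH1L-/- against WT without UV (3.28% called), or for the difference of UV changes (0% called, 488 bodies at an unadjusted p under 0.05).

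XPC coverage around XAB2 and ERCC8 had a lower mean in ASH1L-/- than in WT, a description with no test. Of all XPC coverage in a library, the 5 Mb around XAB2 held 0.324% ± 0.108 (SD, n = 10) in WT and 0.176% ± 0.0564 (n = 9) in ASH1L-/-, and the 5 Mb around ERCC8 held 0.267% ± 0.0444 and 0.171% ± 0.0286. The spans around ERCC6, UVSSA and ELOF1 held 0.168%, 0.152% and 0.182% in WT and 0.171%, 0.117% and 0.170% in ASH1L-/-. The WT shares of XAB2 and ERCC8 were thus above those of the other genes. Their ASH1L-/- shares were close to those of ERCC6 and ELOF1. The log2 ratio of ASH1L-/- to WT was −0.88 around XAB2, −0.64 around ERCC8, −0.39 around UVSSA, −0.10 around ELOF1 and 0.03 around ERCC6. The span around UVSSA is cut at the chromosome end and holds only 3847207 bp. ERCC8 and XAB2 are also the genes whose H3K4me3 height differed most between genotypes after UV. The same 2 genes had no XPC promoter peak in ASH1L-/- at 3 h. The part of these surroundings in the differences between genotypes, for either antibody, was not tested.

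Other genes of the pathway were counted in lists by role, beside the same values for all windows. In WT after UV, height rose at 3 of 9 partners of the ERCC8 ligase and of UVSSA and at 3 of 5 genes listed with XAB2. Whether each of the latter belongs to the XAB2 complex was not checked. Height also rose at 1 of 12 RNA polymerase II subunits and at 2 of 12 elongation factors. Of all windows, 27.1% rose. The medians were 0.31, 0.66, 0.40 and 0.35 against 0.36 for all windows. Among them were STK19 (0.64, adjusted p = 0.0103), a repair factor that binds the stalled complex, and the acetyltransferase EP300 (0.60, adjusted p = 0.0186). Of the genes listed with XAB2 they were ZNF830 (0.77, adjusted p = 0.000934, limma) and the splicing factor CRNKL1 (0.74, adjusted p = 0.00261). The others named were the polymerase subunit POLR2C (0.77, adjusted p = 0.00302) and CTR9 (0.56, adjusted p = 0.0310) and PAF1 (0.55, adjusted p = 0.0379) of the PAF complex. In ASH1L-/- after UV none of these genes passed in height, and 2.81% of all windows did. ASH1L-/- was lower than WT after UV at 5 of 9, 3 of 5, 9 of 12 and 8 of 12 and higher at 1 of the 9, where 65% of all windows were lower. The medians were −0.50, −0.62, −0.46 and −0.50 against −0.49.

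Length gave other counts. In WT after UV, 2 of 9 partners rose (DDB1, the ligase's adaptor, 0.53 kb, adjusted p = 0.00621, limma, and CUL4B, its cullin, 0.28 kb, adjusted p = 0.0273). So did 1 of 5 genes listed with XAB2 (ZNF830, 0.28 kb, adjusted p = 0.0114). Of the polymerase subunits 6 of 12 rose (most POLR2I, 0.59 kb, adjusted p = 0.0296), and of the elongation factors 5 of 12 (most PAF1, 0.60 kb, adjusted p = 0.00171), where 30.5% of all windows rose. The medians of the 4 lists were 0.135, 0.106, 0.293 and 0.181 kb against 0.203 kb. In ASH1L-/- the counts were 4 of 9, 1 of 5, 4 of 12 and 5 of 12, where 24% of all windows rose, with medians of 0.208, 0.0805, 0.128 and 0.256 kb against 0.174 kb. The genes called in ASH1L-/-, without scaling, included RBX1, the ligase's RING subunit (0.62 kb, adjusted p = 0.00963), USP7, the partner of UVSSA (0.41 kb, adjusted p = 0.0263), the helicase AQR (0.49 kb, adjusted p = 0.00836) and POLR2D (0.69 kb, adjusted p = 0.00156). With scaled length 5.79% of all windows rose in WT and 3.80% in ASH1L-/-, and the genes of the lists were not counted on that scale. At XPC promoters none of these genes was called in these comparisons, and neither was any of the 18991 windows tested (0% called). The absence of calls is thus not particular to these lists.

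The 5 members did not follow one another closely. Over the 18 H3K4me3 libraries, which share their depth and groups, the Pearson correlation of covered length between members ran from 0.136 (ERCC6 and ERCC8) to 0.551 (UVSSA and ELOF1). The windows most like each member were INPP5B (0.917) and MTAP (0.881) for ERCC6, SPG7 (0.888) and ZSCAN21 (0.869) for ERCC8, ISG15 (0.943) and AXIN1 (0.907) for UVSSA, THUMPD3 (0.935) and APEX1 (0.905) for ELOF1, and CSNK2A2 (0.837) and CTDP1 (0.834) for XAB2. The third of each was ENSG00000291239 (0.863), EXOC7 (0.860), DEDD2 (0.892), ENSG00000243501 (0.903) and PIEZO1 (0.828), in the same order. These are the highest of 14745 values for each gene and carry no test.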

How the data were processed

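H3K4me3 and XPC were measured by ChIP-seq in U2OS cells. Per the labels and the study's methods, the authors called peaks for each immunoprecipitate against pooled controls, so lists can share a control. The steps were trimming (Trim Galore 0.6.5), alignment to hg38 without chromosome Y (BWA 0.7.17-r1188), filtering (bedtools 2.29.2, Picard, SAMtools 1.7) and peak calling (MACS2 2.2.7.1, p of 0.01), narrow against input for H3K4me3 and broad against XPC-/- immunoprecipitates for XPC. The XPC lists hold peaks weaker than this threshold, down to a −log10 p of 1.00 to 1.47 by library. The deposited lists give peak positions (other), the ratio of signal to control (fold enrichment), −log10 p and −log10 q, all the authors' values for 1 library each. They hold no read counts, and the depth of the libraries is not given in them.

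Start sites came from GENCODE 44 (MANE transcript for 19016 genes, Ensembl canonical for 954). Covered length was summed over 4 kb promoter windows and over 17678 gene bodies (from 2 kb past the start site, without other genes' promoters, genes over 4 kb). Group means were fitted per antibody over all windows covered in at least 3 libraries with limma 3.58.1 in R 4.3.3 (trend and robust), adjusted by Benjamini-Hochberg, at a threshold of 0.05. The p-values measure the spread between libraries labelled as biological replicates. In simulated covered lengths tested for UV in WT, shifts of 0.5 kb in 200 of 14745 H3K4me3 windows were recovered in 73% and shifts of 1 kb in 99.5%. Of 200 windows shifted among 18991 XPC windows, 0% were recovered for both. The simulated lengths were not limited to the length of a window.

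The members, lists and alternatives were chosen with earlier results of these data known. All 5 members were named in every comparison, with up to 2 passing genes of each pathway list per UV comparison, genes sharing a member's window, the 3 windows most correlated with each member, and ASH1L. Alternatives were scaling, a 1 kb window side, stricter peaks (fold enrichment of at least 5, equal numbers of peaks), only the groups compared, a replicate block and leaving out each library. The comparisons of UV changes at single times were added after the data were seen. Sequences and motif shares came from RefSeq (GRCh38.p14).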

Additional observations from a re-analysis of the deposited data

Results flagged for a closer look

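In the body of XAB2, XPC covered 5.75 kb in WT no UV replicate 3, against 1.18, 1.29 and 1.84 kb in the other 3 libraries of that group. Its gap to the nearest was 0.856 of the range of the group, above Dixon's 95% critical value for 4 samples. Of 10 groups of this size tested, 1 stood out so, and chance alone marks about 1 in 20.

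The UV change of H3K4me3 height at 3 h differed between genotypes at ERCC8 (−1.30, adjusted p = 0.0129, limma) and XAB2 (−1.24, adjusted p = 0.00380), in a comparison added after the values were seen. Leaving out 1 library at a time gave −1.60 to −1.10 for ERCC8 (adjusted p = 0.00208 to 0.0486) and −1.32 to −1.07 for XAB2 (adjusted p = 0.00266 to 0.0168).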

How the results depend on the processing

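Of 5 genes, the number called changed as follows. For H3K4me3 promoter length, UV in WT went from 1 to 0 with length scaled to an equal total, only the groups compared, a 1 kb window side, fold enrichment of at least 5 and an equal number of peaks, UV in ASH1L-/- from 2 to 0 with scaled length, the 1 kb side and the fold enrichment limit, and ASH1L-/- against WT from 0 to 1 without UV (scaled) and from 1 to 0 after UV (fold enrichment limit). With library medians subtracted, promoter height went from 4 to 2 for UV in WT, from 0 to 2 for the difference of UV changes, and, for ASH1L-/- against WT, from 0 to 1 without UV and from 5 to 1 after UV. For gene bodies, UV in WT went from 1 to 0 with scaled length, only the groups compared, the fold enrichment limit and equal peaks, UV in ASH1L-/- from 1 to 0 with only the groups compared and the fold enrichment limit, and ASH1L-/- against WT after UV from 1 to 2 (scaled) or 0 (fold enrichment limit, equal peaks). The causes were not tested, though the stricter peak sets left fewer gene bodies to test.

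Directions turned for ERCC6 length after UV in WT (−0.0035 kb, scaled), in ASH1L-/- (−0.023 kb, 1 kb side) and at 3 h in ASH1L-/- (−0.046 kb, 1 kb side), for UVSSA length in ASH1L-/- against WT after UV (−0.114 kb, 1 kb side, adjusted p = 0.0329) and at 3 h (−1.41 kb, fold enrichment limit, adjusted p = 0.0313), and, with medians subtracted, for ELOF1 height after UV (0.19) and at 3 h (0.11) and ERCC6 height at 3 h (0.032) in ASH1L-/- against WT.

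Leaving out 1 library at a time, the number called ranged from 0 to 3 (length, UV in WT), 0 to 2 (length, UV in ASH1L-/- and ASH1L-/- against WT after UV), 0 to 1 (length, genotypes without UV), 3 to 4 (height, UV in WT), 0 to 2 (height, difference of UV changes), 4 to 5 (height, genotypes after UV), 0 to 2 (body, UV in WT) and 0 to 1 (body, UV in ASH1L-/-). Every XPC number stayed at 0 there. With a replicate block, length in ASH1L-/- against WT after UV had 2 calls (ERCC8 and ELOF1) in place of 1, and no other number of calls in the 25 planned comparisons changed. The numbers were not taken as pairs, since no label says what they share and of 45 same-numbered pairs per antibody 18 (H3K4me3) and 8 (XPC) correlated above 0.1. For H3K4me3, 16 of 18 libraries were closest to their own number, a hint of pairing from the data and not from the design (XPC, 6 of 19).

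Depth limits these values: the peak lists carry none, a region without a call is not shown to lack the mark, and numbers of XPC peaks were not compared, since 17 of 19 lists hold exactly 500000.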
